A study of Mus musculus with 12 samples.

Results

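Genes that mark injured and regrowing neurons were followed through a mouse RNA sequencing series on lasting inflammatory pain of the temporomandibular joint. They are Atf3, Sox11, Gap43, Sprr1a, Gal, Npy, Vip, Ecel1, Flrt3 and Gadd45a. All deposited protein-coding transcripts with one of these symbols were taken, which gave 10 of 21981 genes and 16 of 57109 transcripts. Every gene identifier and every one of the 16 transcripts matched the GENCODE M21 annotation (GRCm38). The groups were STG and CTG, from trigeminal ganglia (TG), and SSp5C and CSp5C, from the spinal trigeminal nucleus caudalis (Sp5C), with 3 numbered libraries each. All came from C57BL/6 mice aged 8 weeks, with no allele, agent or time after treatment in the labels. The letters S and C are not spelled out there, so each contrast is given as C minus S. Whether the 3 libraries of a group are 3 animals is not stated, so the p-values describe the spread among these libraries, and that spread may be technical only.

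Sensory neurons that serve the face and jaw have their cell bodies in the trigeminal ganglion, and the caudal trigeminal nucleus is where their pain and temperature fibres end in the brainstem. When the axon of such a neuron is cut or crushed, the cell body turns on a well-described programme. Stress transcription factors (Atf3, Sox11) and a DNA damage and stress gene (Gadd45a) rise, as do growth-associated proteins (Gap43, Sprr1a), neuropeptides that uninjured neurons hardly make (Gal, Npy, Vip), a neuronal membrane peptidase (Ecel1, also called DINE) and an adhesion molecule (Flrt3). Several are also made by uninjured neurons of the brain, so their level in the brainstem nucleus is not a measure of axon injury.

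Values are FPKM, fragment numbers divided by transcript length and library total, summed over the transcripts of a gene. Differences are on the log2(FPKM + 1) scale, where low genes show less than their full change, and were tested with limma across all genes with a mean of at least 1 FPKM in the libraries compared. P-values were adjusted by the Benjamini-Hochberg method over all those genes, with a threshold of 0.05. In bulk tissue, fewer cells of a type and less RNA per cell cannot be told apart. The dissections carried the markers of their labels. Summed FPKM of 12 sensory neuron markers was 1794 to 1949 in STG, 1953 to 2042 in CTG, 215 to 226 in SSp5C and 182 to 287 in CSp5C. The TG groups thus did not overlap, and 10 of the 12 markers had a higher mean in CTG. The sum of 12 hindbrain interneuron markers was 77.0 to 86.6 in TG and 412 to 479 in Sp5C.

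Some libraries stood apart in markers of neighbouring tissue. STG replicate 1 had a summed FPKM of 2950 over 10 pituitary markers, against 71.3 to 111 in the other TG libraries. Its level of Gh, growth hormone, was 2421 FPKM. Most of the sum in the other TG libraries was Chga, 1 of the 10 markers, which was 58.9 to 78.9 FPKM over TG. Gh was also 40.1 FPKM in CTG replicate 1 and 12.5 in CTG replicate 3, against 2.06 to 4.05 in the remaining TG libraries. Cga, another of the 10, was instead next highest in STG replicate 3 (3.10). CTG replicates 1 and 3 had summed FPKM of 879 and 294 over 12 granulocyte and bone marrow markers, against 4.10 to 33.9 in the other TG libraries. In Sp5C, the sum of 6 oligodendrocyte markers was 3144 to 3361 in SSp5C and 2155 to 2878 in CSp5C, so those groups did not overlap. Nor did they for 7 Schwann cell markers, among them Mbp, which oligodendrocytes also make, with sums of 885 to 920 in SSp5C and 647 to 837 in CSp5C. CSp5C replicate 3 stood at 61.2 over 5 choroid plexus and ependyma markers, against 7.75 to 26.4 in the other Sp5C libraries, and CTG replicate 1 at 89.7 over 8 bone and cartilage markers, against 10.6 to 24.0 in the other TG libraries. The part of these differences, the sensory neuron sums included, in the results on the 10 genes was not tested. Values without the libraries concerned are given where they change a result for a tested member. None are given for Vip and Ecel1 in TG, which were under the filter there and highest in STG replicate 1.

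Promoter sequences of the members were looked up, and those shown were picked by the levels of the genes. The RefSeq promoter table (GRCm38.p6, 250 bases before to 50 bases after the start of the gene) held 9 of the 10 members, all but Gap43. Sprr1a and Atf3 are shown because their level was higher in every C than in every S library of at least one tissue, and Npy, Vip and Ecel1 because their values in TG were near 0. With no filter, 3.97% of 19072 genes were higher in every CTG library and 4.45% in every CSp5C library. Capitals mark a TATA box (TATAAA), a GC box (GGGCGG) or an AP-1 element (TGAGTCA), each searched on both strands.
Sprr1a, chr3:92485832-92486131, minus strand: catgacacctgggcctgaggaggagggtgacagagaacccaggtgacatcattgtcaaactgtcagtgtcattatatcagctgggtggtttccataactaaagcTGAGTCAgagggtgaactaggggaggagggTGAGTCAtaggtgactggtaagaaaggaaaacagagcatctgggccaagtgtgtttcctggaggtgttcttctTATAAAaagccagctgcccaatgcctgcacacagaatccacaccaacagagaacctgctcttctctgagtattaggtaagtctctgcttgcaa
Atf3, chr1:191183284-191183583, minus strand: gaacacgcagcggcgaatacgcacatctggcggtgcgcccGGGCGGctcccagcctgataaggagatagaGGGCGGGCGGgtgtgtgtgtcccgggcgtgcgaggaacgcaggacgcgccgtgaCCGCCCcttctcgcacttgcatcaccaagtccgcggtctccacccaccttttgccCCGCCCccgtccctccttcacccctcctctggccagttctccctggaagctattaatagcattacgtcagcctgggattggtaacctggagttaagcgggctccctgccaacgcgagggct
Npy, chr6:49822460-49822759, plus strand: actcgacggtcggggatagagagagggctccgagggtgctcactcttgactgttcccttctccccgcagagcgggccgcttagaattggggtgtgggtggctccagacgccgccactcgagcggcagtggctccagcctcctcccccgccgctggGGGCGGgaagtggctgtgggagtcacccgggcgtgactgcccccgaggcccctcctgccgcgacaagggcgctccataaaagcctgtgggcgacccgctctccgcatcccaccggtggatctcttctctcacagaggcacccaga
Vip, chr10:5638968-5639267, plus strand: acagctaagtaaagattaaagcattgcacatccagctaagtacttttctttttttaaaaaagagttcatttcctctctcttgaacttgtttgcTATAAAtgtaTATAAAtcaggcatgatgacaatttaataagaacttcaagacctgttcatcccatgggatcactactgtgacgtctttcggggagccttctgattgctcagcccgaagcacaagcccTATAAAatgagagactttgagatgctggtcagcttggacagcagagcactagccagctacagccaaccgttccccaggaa
Ecel1, chr1:87156307-87156606, minus strand: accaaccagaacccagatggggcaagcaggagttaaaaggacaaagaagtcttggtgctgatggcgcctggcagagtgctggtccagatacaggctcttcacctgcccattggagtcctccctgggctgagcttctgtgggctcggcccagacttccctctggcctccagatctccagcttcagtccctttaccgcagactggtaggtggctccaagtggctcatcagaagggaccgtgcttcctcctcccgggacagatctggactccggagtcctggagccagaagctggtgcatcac

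In Sprr1a, copies of TGAGTCA lay 146 and 116 bases before the start and a TATA box lay 43 bases before it. AP-1 is the dimer of Jun with Fos or Atf family proteins. Sprr1a was the 1 of 9 members with an AP-1 element in this window, which 5.2% of 32851 promoters held. Atf3 carried 5 GC boxes, of which those 180 and 176 bases before the start overlap each other. Its window belongs to the downstream start, that of the transcript Atf3-201. Npy carried a GC box 95 bases before its start, and Vip carried TATA boxes 157, 147 and 30 bases before its start. Ecel1 held none of the motifs searched. The start of Ecel1-203, its main transcript in Sp5C, is at position 87156165, downstream of and outside this window. GC boxes were in 5 of 9 member promoters and in 35.7% of all promoters, and TATA boxes in 2 of 9 and in 13.6%. The cyclic AMP response element TGACGTCA was in 0 of 9 and in 1.79%. These matches describe letters in a window and not binding.

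**Figure D1:**
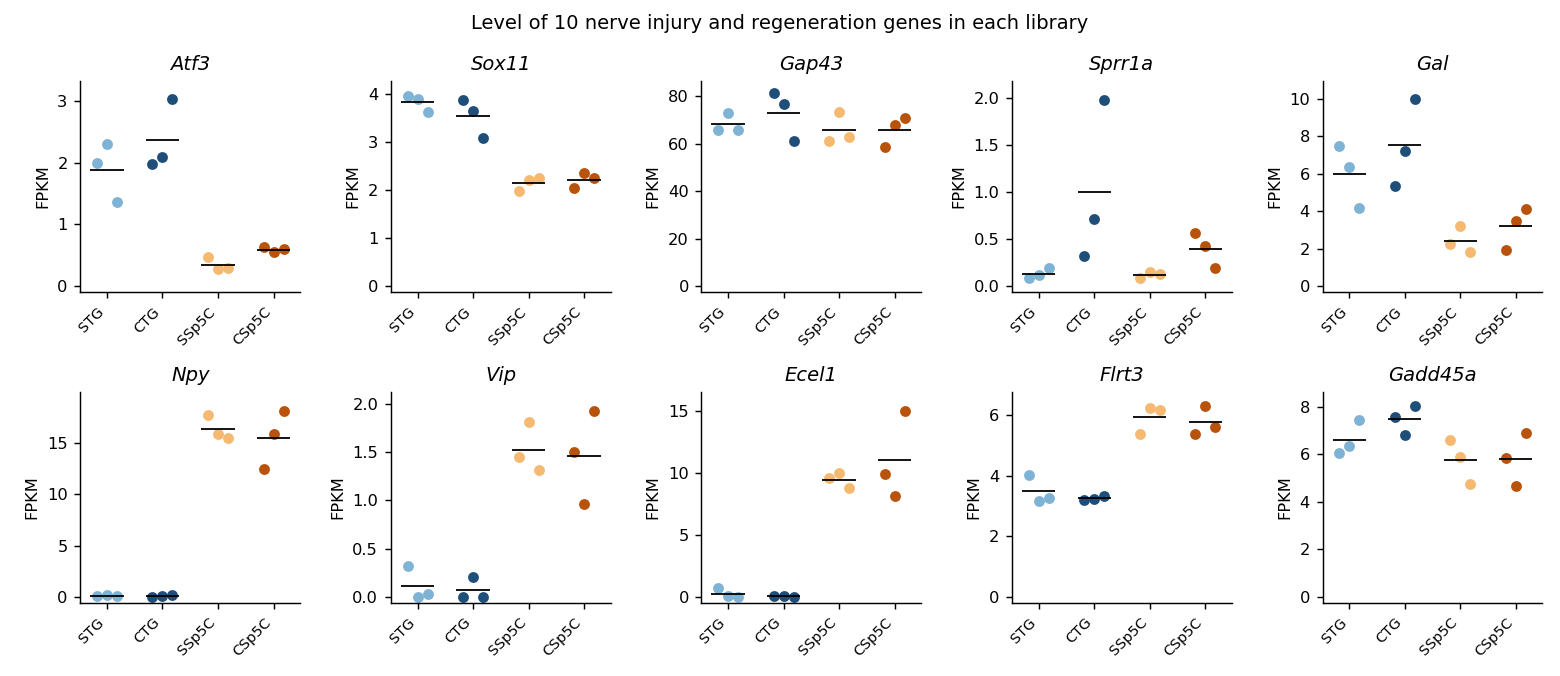
Level of the 10 genes in each library. Each panel is 1 gene, the vertical axis is FPKM from 0, each point is 1 library of the group named under it (3 per group) and the black bar is the group mean. Within each tissue all Sprr1a points of the C group lie above those of the S group, and Npy, Vip and Ecel1 points lie near 0 in TG.

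The first question was which of these genes each tissue made. Per length, Gap43 was by far the highest of the 10 in both tissues, with a mean of 70.6 FPKM in TG and 65.9 in Sp5C. That placed it at rank 609 of 18513 genes above 0 in TG and rank 679 of 18410 in Sp5C. In TG it was followed by Gadd45a (7.05), Gal (6.78), Sox11 (3.68), Flrt3 (3.37), Atf3 (2.12) and Sprr1a (0.570). Ecel1 (0.154), Npy (0.117) and Vip (0.0924) were at the bottom. In Sp5C the order after Gap43 was Npy (15.9), Ecel1 (10.3), Flrt3 (5.85), Gadd45a (5.78), Gal (2.82), Sox11 (2.18), Vip (1.49), Atf3 (0.471) and Sprr1a (0.259). Over 6 libraries, ranges in TG overlapped for Gadd45a and Gal, Sox11 and Flrt3, and Atf3 and Sprr1a. Those of Sprr1a, Ecel1, Npy and Vip in TG all overlapped one another. In Sp5C, overlap was seen for Npy and Ecel1, Flrt3 and Gadd45a, Gal and Sox11, Gal and Vip, and Atf3 and Sprr1a.

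The 10 genes thus did not share 1 tissue pattern. Of the 8 tested between the tissues over all 12 libraries, 4 were higher in TG (Atf3, Sox11, Gal, Gadd45a), 3 were lower (Npy, Ecel1, Flrt3) and Gap43 did not pass. That is 7 of 8, where 71.2% of the 13081 genes tested passed (36.2% higher and 35% lower), so the share itself is no feature of the list. All 6 TG libraries lay above all 6 Sp5C libraries for Atf3, Sox11 and Gal and below them for Npy, Ecel1 and Flrt3, while the tissues did not overlap for 53.7% of all genes tested (27.6% higher and 26.1% lower in TG). Vip and Sprr1a were under the filter over 12 libraries. Npy and Ecel1 reached that filter only through Sp5C, and Atf3 only through TG, so their calls are not independent of it. With no filter their limma adjusted p were 8.53e-11 for Npy, 1.98e-08 for Ecel1 and 4.43e-06 for Atf3.

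**Figure D2:**
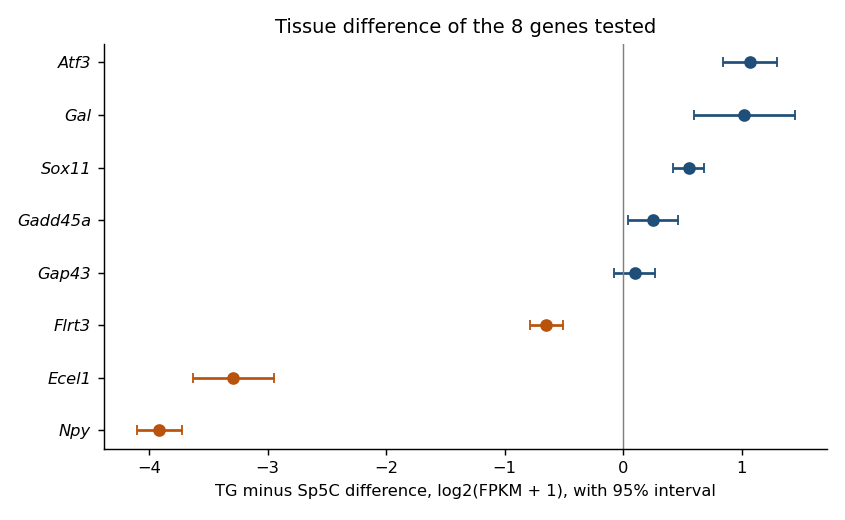
Difference of TG minus Sp5C for the 8 genes tested, in log2(FPKM + 1), with 95% intervals, from limma over 12 libraries. Points right of 0 are higher in TG (blue) and points left of it are higher in Sp5C (orange). Npy and Ecel1 differ by more than 3 log2 units, and the interval of Gap43 includes 0.

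Between C and S, none of the members passed the test in either tissue. In TG, 6 members were tested with limma and 0 passed, where 1 of 12906 genes did (0.00775%). In Sp5C, 8 were tested and 0 passed, where 4 of 12690 genes did (0.0315%). At an unadjusted limma p under 0.05 the counts of tested members were 0 and 0, beside 4.7% and 5.02% of all genes tested. Atf3 in Sp5C and Sprr1a in both tissues were under the filter and not in these counts. With no filter, Atf3 in Sp5C had an unadjusted limma p of 0.0119 (rank 289 of 18410 genes). Sprr1a had 0.0222 in Sp5C (rank 510) and 0.0413 in TG (rank 639 of 18513). None of the tested members had all C libraries on one side of all S libraries, which 10.8% of genes tested in TG and 10.9% in Sp5C had in one direction or the other. The median C minus S difference of the tested members was 0.12 in TG and 0.0028 in Sp5C, beside -0.0058 and 0.00071 over all genes tested. In TG, 4 of the 6 (Atf3, Gap43, Gal, Gadd45a) had a higher mean in CTG, where 48% of all genes tested did. The test of whether the C minus S difference itself differed between tissues called 0 of 8 members and 0 of 13081 genes in limma, with 708 genes at an unadjusted p under 0.05. No other tool was run on these scaled values.

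**Figure D3:**
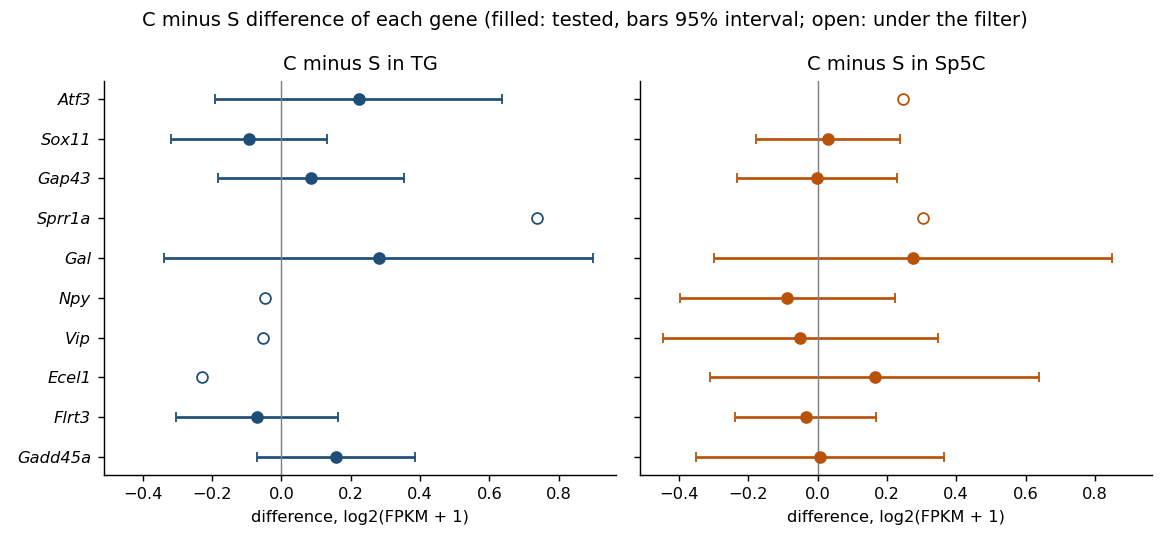
C minus S difference of each gene in TG (left) and Sp5C (right), in log2(FPKM + 1). Filled points with 95% intervals were tested with limma on 6 libraries, and open points are genes under the filter of 1 FPKM, with no interval. Every interval drawn includes 0, and the open points of Sprr1a (0.74 in TG, 0.30 in Sp5C) lie farthest to the right in each panel.

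Atf3, a transcription factor that is nearly silent in intact sensory neurons and is the usual marker of a cut axon, was low throughout. Its FPKM was 1.99, 2.30 and 1.36 in STG and 1.98, 2.08 and 3.02 in CTG. The groups overlapped, with CTG replicate 3 the highest library. The difference was 0.22 (95% interval -0.19 to 0.64, adjusted p = 0.960 in limma). In Sp5C it was 0.469, 0.276 and 0.298 in SSp5C and 0.634, 0.548 and 0.600 in CSp5C. Here every C library lay above every S library, at a level under the filter. From the spacing of low FPKM values these libraries held an estimated 26.3, 16.2 and 16.4 fragments of Atf3 in SSp5C and 36.3, 30.0 and 26.9 in CSp5C. With no filter, the difference in Sp5C was 0.24 (limma adjusted p = 0.749), and 4.45% of 19072 genes lay higher in every CSp5C than in every SSp5C library. Averaged over both tissues, a contrast added after these values were seen, the Atf3 difference was 0.23 (interval 0.0063 to 0.46, limma adjusted p = 0.870). That contrast called 0 of 8 members and 2 of 13081 genes (0.0153%). It takes the 12 libraries as independent, but CTG and CSp5C libraries of the same number deviated together from their group means (correlations across genes of 0.333, 0.226 and 0.383). With same-numbered libraries of one letter joined into 1 value, an alternative also added later, the limma adjusted p of Atf3 was 0.997. Leaving out CTG replicate 3 lowered the TG difference to 0.087, and leaving out STG replicate 3 lowered it to 0.086. Without STG replicate 2 the TG difference was 0.33, and without CTG replicate 1 it was 0.30.

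The mean of Atf3 over the 6 libraries of a tissue was 2.12 ± 0.541 FPKM (SD) for TG and 0.471 ± 0.153 for Sp5C, a difference of 1.07 (limma adjusted p = 2.18e-06). The gene lies on the minus strand at chr1:191170296-191218039 and has 2 deposited transcripts, Atf3-201 and Atf3-203. Atf3-203 starts 34699 bases upstream of Atf3-201. It was listed above 0 in 4 libraries, at 0.593 FPKM in STG replicate 3 and 0.371, 0.741 and 0.273 in CTG, and at 0 in STG replicates 1 and 2 and in all 6 Sp5C libraries. Where listed, it made up 43.6%, 18.7%, 35.6% and 9.05% of the gene's FPKM. The upstream transcript thus appeared in TG libraries of both letters. A value of exactly 0 may also be an estimate that failed. Atf3-201 alone differed by 0.13 between CTG and STG (limma adjusted p = 0.983).

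Sox11, a single-exon transcription factor of developing and regrowing neurons, was nearly the same in C and S. Its FPKM was 3.97, 3.89 and 3.62 in STG and 3.88, 3.65 and 3.09 in CTG. Its Sp5C values were 1.99, 2.21 and 2.25 in SSp5C and 2.04, 2.35 and 2.26 in CSp5C. The groups overlapped in both tissues, with C minus S differences of -0.093 in TG (interval -0.32 to 0.13) and 0.031 in Sp5C (-0.18 to 0.24), at limma adjusted p of 0.960 and 0.972. Every TG library lay above every Sp5C library, with a difference of 0.56 (limma adjusted p = 5.67e-06).

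Gadd45a, a stress-induced regulator of the cell cycle and DNA repair, read 6.04, 6.35 and 7.45 FPKM in STG and 7.56, 6.82 and 8.06 in CTG. Values in Sp5C were 6.60, 5.90 and 4.76 in SSp5C and 5.84, 4.68 and 6.89 in CSp5C. Groups overlapped in each case. The TG difference of 0.16 had an interval of -0.071 to 0.39 (limma adjusted p = 0.960), and the Sp5C difference was 0.0069 (0.996). TG was higher than Sp5C by 0.25 with a limma adjusted p of 0.0321, although the tissues overlapped. That call was lost without any 1 of STG replicate 3 (0.0777), CTG replicate 1 (0.0552), CTG replicate 3 (0.0707), SSp5C replicate 3 (0.0784) or CSp5C replicate 2 (0.0751). All its FPKM came from Gadd45a-201, since Gadd45a-206 and Gadd45a-207 were listed at 0 in every library. The locus at chr6:67035096-67037457 overlaps E230016M11Rik on the opposite strand. The library kit marks strand, but whether the counting used it is not given in the sources used here.

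Gap43, a membrane protein of growth cones and presynaptic endings, was abundant and even. Its FPKM was 65.7, 73.1 and 66.0 in STG, and 81.2, 76.6 and 61.2 in CTG. In SSp5C it was 61.3, 73.6 and 62.8, and in CSp5C 58.7, 67.8 and 71.1. All 4 groups overlapped. The C minus S difference was 0.087 in TG (interval -0.18 to 0.35) and -0.0013 in Sp5C (-0.23 to 0.23), at limma adjusted p of 0.962 and 0.999. TG and Sp5C differed by 0.097 (interval -0.079 to 0.27, limma adjusted p = 0.295). With an estimated 2282.7 to 3227.1 fragments per library, Gap43 was the best counted of the members with an estimate.

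Sprr1a, a small proline-rich protein of squamous epithelium that injured sensory neurons make during regrowth, was the one member higher in every C library than in every S library of both tissues. Its FPKM was 0.0927, 0.116 and 0.197 in STG and 0.322, 0.713 and 1.98 in CTG. The Sp5C libraries gave 0.0884, 0.149 and 0.134 in SSp5C and 0.566, 0.428 and 0.191 in CSp5C. The lowest C library of each tissue lay close to the highest S library in Sp5C and further from it in TG. Group means were 0.135 ± 0.0546 and 1.004 ± 0.865 in STG and CTG, and 0.124 ± 0.0316 and 0.395 ± 0.190 in SSp5C and CSp5C (SD, n = 3 libraries each). Over all 19072 genes above 0, 40 (0.21%) were higher in every C library of both tissues and 71 (0.372%) were lower in every one, while 3.97% were higher in TG. Among the 2034 genes with a mean of 0.2 to 1 FPKM over the 12 libraries, 10 (0.492%) were higher in both and 6 (0.295%) lower in both. As the same-numbered CTG and CSp5C libraries deviated together, the tissues are not independent in these counts.

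Those levels rest on few fragments. The estimate was 2.0, 2.5 and 4.0 fragments in STG, 7.0, 17.1 and 51.0 in CTG, 2.0, 3.6 and 3.0 in SSp5C, and 13.2, 9.5 and 3.5 in CSp5C. CSp5C replicate 3 and SSp5C replicate 2 thus held about the same number, and their order in FPKM comes from their different totals. The ratio of mean FPKM was 7.43 in TG and 3.83 without CTG replicate 3, and it was 3.19 in Sp5C and 2.50 without CSp5C replicate 1. Under the filter there was no main test. With no filter, limma gave 0.74 in TG (adjusted p = 0.956) and 0.30 in Sp5C (adjusted p = 0.796). Averaged over both tissues the limma difference was 0.52 (adjusted p = 0.803), or 1.51 with a pseudocount of 0.1 (adjusted p = 0.607). None passed after adjustment over all genes. The averaged contrast and the lower pseudocount without a filter were added after the values were seen.

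Because Sprr1a is also an epithelial gene, 12 squamous epithelium markers were read beside it. Their summed FPKM was 2.64, 2.24 and 2.74 in STG and 4.81, 2.48 and 2.77 in CTG. In Sp5C the sum was 3.17, 4.75 and 4.03 in SSp5C and 4.08, 3.83 and 3.06 in CSp5C. CTG replicate 1 was the highest TG library in this sum and the lowest CTG library in Sprr1a. Krt5, a keratin of basal epithelium, was listed at 0.451 FPKM in CTG replicate 1 and at 0 in the other 11 libraries. Sprr1b, the nearest relative of Sprr1a on the list, was listed at 0 in all 12. Of the 12 squamous markers, 9 had a higher and 2 a lower mean in CTG than in STG. In Sp5C, 4 had a higher and 5 a lower mean in CSp5C than in SSp5C. Krt14 was the 1 squamous marker of 12 that was also higher in every C library of both tissues, at 0.905, 0.139 and 0.0916 FPKM in CTG against 0.0411 to 0.0706 in STG, and at 0.105 to 0.193 in CSp5C against 0 to 0.102 in SSp5C. Granulocyte marker sums were 879, 12.5 and 294 in CTG, in an order that was not that of Sprr1a. All 12 granulocyte markers had a higher mean in CTG than in STG. The part of either cell type in the Sprr1a values was not tested.

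**Figure D4:**
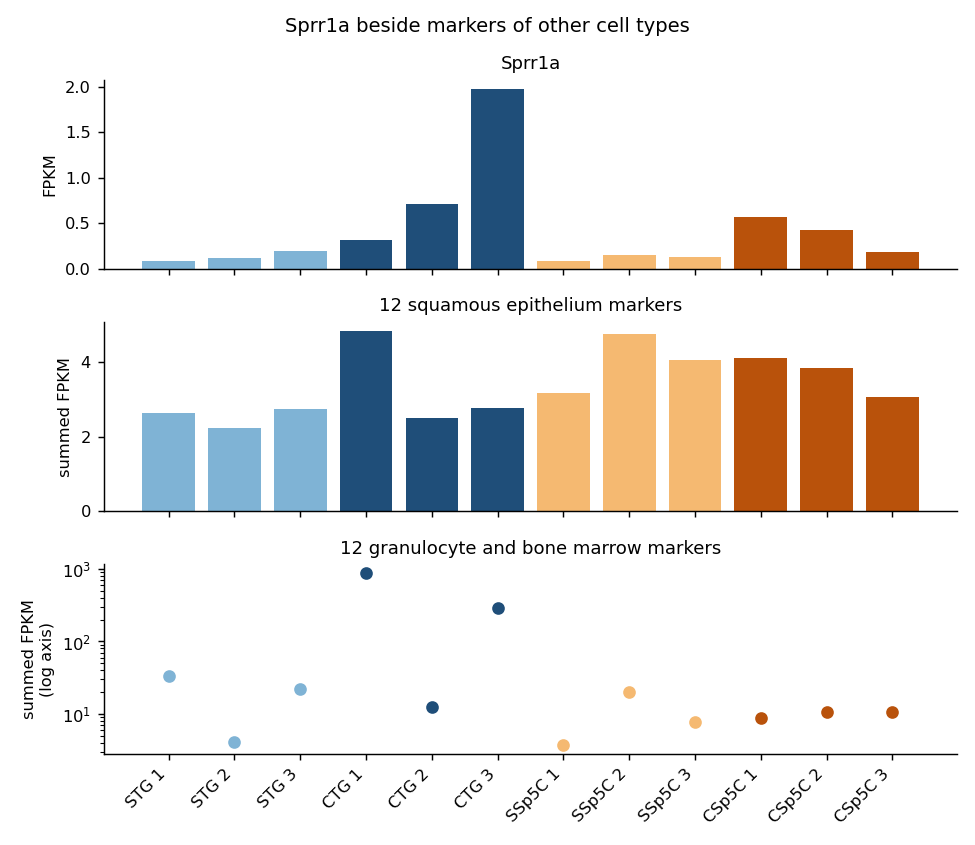
Sprr1a (top, FPKM), 12 squamous epithelium markers (middle, summed FPKM) and 12 granulocyte and bone marrow markers (bottom, summed FPKM on a log axis) in each of the 12 libraries. Sprr1a is highest in CTG replicate 3 (1.98), whereas the squamous and granulocyte sums are highest in CTG replicate 1 (4.81 and 879).

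Gal encodes galanin, a peptide that sensory neurons strongly raise after nerve section and that brain neurons also make. It stood at 7.49, 6.37 and 4.16 FPKM in STG and 5.37, 7.24 and 10.03 in CTG. For Sp5C the values were 2.26, 3.22 and 1.81 in SSp5C and 1.96, 3.50 and 4.15 in CSp5C. The means were higher in C in both tissues, with wide overlap, at differences of 0.28 in TG (interval -0.34 to 0.90, limma adjusted p = 0.960) and 0.27 in Sp5C (-0.30 to 0.85, 0.931). Single libraries moved both: dropping STG replicate 3 gave 0.075 in TG and dropping CTG replicate 3 gave 0.078. Dropping STG replicate 1 gave 0.43, dropping CTG replicate 1 gave 0.47, and dropping both gave 0.63. In Sp5C it was 0.11 without CSp5C replicate 3, 0.14 without SSp5C replicate 3, 0.43 without SSp5C replicate 2 and 0.51 without CSp5C replicate 1. Its intervals were the widest of the tested members in both tissues, so a change of the size of the mean difference was not detectable with 3 libraries a group. TG exceeded Sp5C by 1.02 (limma adjusted p = 0.000585), with no overlap.

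Npy, neuropeptide Y, is absent from most intact sensory neurons, appears in large ones after nerve section, and is made by inhibitory interneurons of the dorsal horn. In TG it was listed at 0.133, 0.199 and 0.0705 FPKM in STG and at 0, 0.118 and 0.181 in CTG, an estimated 0 to 3.3 fragments a library. In Sp5C it was 17.7, 15.9 and 15.5 in SSp5C and 12.4, 15.9 and 18.1 in CSp5C, where the groups overlapped. The Sp5C difference was -0.087 (interval -0.40 to 0.22, limma adjusted p = 0.951). TG was lower than Sp5C by a difference of -3.91 (limma adjusted p = 1.09e-11). STG and CTG overlapped too, at a level where a few fragments were the whole signal.

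Vip, vasoactive intestinal peptide, another peptide of cut sensory neurons and of some central interneurons, was listed at 0.317, 0 and 0.0263 FPKM in STG and at 0, 0.211 and 0 in CTG. Its Sp5C values were 1.45, 1.81 and 1.31 in SSp5C and 1.5, 0.962 and 1.93 in CSp5C. The Sp5C groups overlapped, with a difference of -0.050 (interval -0.44 to 0.35, limma adjusted p = 0.978). Every TG library lay below every Sp5C library. The highest TG value, in STG replicate 1, was in the library with the high pituitary markers. The next, 0.211 in CTG replicate 2, was in a library with a pituitary marker sum of 72.1. The part of pituitary tissue in the Vip values was not tested.

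Receptors of the 3 peptides were read beside them. Of 11 listed, 3 were tested between CTG and STG, 6 between CSp5C and SSp5C, and 5 between tissues. None of those tested passed for C minus S in either tissue. Between tissues the 5 tested passed, where 71.2% of all genes did, and the other 6 were under the filter. Npy5r and Galr1 reached the filter only through Sp5C. Adcyap1r1, the PAC1 receptor, which prefers PACAP over VIP, had means of 2.28 ± 0.546 FPKM over the TG libraries and 41.3 ± 4.85 over those of Sp5C (SD, n = 6, difference -3.69, limma adjusted p = 1.81e-11). Npy5r was at 0.308 in TG and 1.98 in Sp5C (-1.19), and the galanin receptor Galr1 at 0.860 and 2.14 (-0.75). The neuropeptide Y receptors Npy2r, at 3.30 in TG and 1.87 in Sp5C (0.58), and Npy1r, at 4.42 and 2.93 (0.47), went the other way, so TG held these receptors with hardly any Npy. Vipr2 entered only the Sp5C test, at 0.956 ± 0.0326 FPKM in SSp5C and 1.17 ± 0.696 in CSp5C (difference 0.10). Galr2 was listed at 0 in all 6 Sp5C libraries and at 0 to 0.219 FPKM in TG.

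Ecel1, a membrane metallopeptidase that many types of cut neuron turn on, was almost absent from TG. It was listed there at 0.712, 0.0499 and 0.0265 FPKM in STG and at 0.0599, 0.0448 and 0.0326 in CTG. STG replicate 1 stood alone, and it is the library with the high pituitary markers. In that library 66.0% of the value came from Ecel1-201, a transcript that made up at most 0.0933% in any Sp5C library. In Sp5C, Ecel1 was 9.58, 10.004 and 8.80 FPKM in SSp5C and 9.93, 8.17 and 15.1 in CSp5C, mostly as Ecel1-203 (77.8% to 85.0%), with Ecel1-204 as the rest (15.0% to 22.2%). The groups overlapped, with a difference of 0.16 (interval -0.31 to 0.64, limma adjusted p = 0.934) that was -0.062 without CSp5C replicate 3, the library with the high choroid plexus and ependyma markers. TG minus Sp5C was -3.29 (limma adjusted p = 4.03e-09).

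Flrt3, a leucine-rich repeat adhesion protein that binds Unc5 receptors and latrophilins, was 4.03, 3.16 and 3.28 FPKM in STG and 3.19, 3.24 and 3.35 in CTG. Values in Sp5C were 5.37, 6.25 and 6.17 in SSp5C and 5.38, 6.30 and 5.62 in CSp5C. The groups overlapped in each tissue, at differences of -0.071 (interval -0.30 to 0.16, limma adjusted p = 0.965) and -0.035 (-0.24 to 0.17, 0.970). STG replicate 1 was the highest TG library, and without it the TG difference was 0.014. Sp5C was higher, with a TG minus Sp5C difference of -0.65 (limma adjusted p = 2.64e-06). Flrt3-202 made up 70.1% to 98.2% of the gene. Flrt3 lies within the gene Macrod2, which runs on the opposite strand.

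Single transcripts were tested in the same way. For C minus S, 0 of 6 member transcripts passed in TG, where 12 of 19560 did (0.0613%), and 0 of 10 in Sp5C, where 4 of 19425 did (0.0206%). Between tissues 7 of 9 passed, where 53.5% of 20082 transcripts did. The 9 were those of Npy, Sox11, Gal, Gap43, Gadd45a-201 (limma adjusted p = 0.0557), Atf3-201, Flrt3-202, Ecel1-203 and Ecel1-204. Those of Npy and Ecel1 reached the filter only through Sp5C, and Atf3-201 only through TG.

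Relatives of the 10 genes were read next, from 18 of 19 listed symbols found in the table. For C minus S none of 13 tested in TG and none of 14 tested in Sp5C passed. Groups did not overlap for 1 of 13 in TG and 2 of 14 in Sp5C, beside 10.8% and 10.9% of all genes tested. Gadd45b, a sister of Gadd45a, was 3.45, 3.92 and 3.67 FPKM in STG and 6.12, 4.12 and 4.30 in CTG, with no overlap (difference 0.31, limma adjusted p = 0.960), and 4.54 to 4.95 in SSp5C against 4.58 to 4.92 in CSp5C. Adgrl3, the latrophilin that binds Flrt3, was 19.8 ± 1.68 FPKM in STG and 17.0 ± 0.987 in CTG (SD, n = 3, -0.20). Unc5b, the netrin receptor that binds Flrt3, was lower in each CSp5C library (13.3 to 16.1 FPKM) than in each SSp5C library (17.2 to 19.8), at -0.32 (limma adjusted p = 0.904). Sox4 had no overlap in Sp5C at -0.14. The other TG differences of relatives were -0.24 for Sox4, -0.23 for Marcks, 0.22 for Gadd45g, 0.066 for Basp1, 0.074 for Flrt1, 0.056 for Adcyap1, -0.064 for Ece1, 0.032 for Ece2, 0.050 for Unc5b, -0.022 for Sox12 and 0.025 for Flrt2.

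Between tissues 10 of 14 relatives passed, near the share of all genes (71.2%), so the count is no feature of the relatives. The Flrt3 partners Unc5b (-2.80), Unc5d (-1.87) and Adgrl3 (-0.98) and the sisters Flrt1 (-0.59) and Flrt2 (-0.49) were lower in TG, as was Flrt3 itself. Unc5d was under the filter in TG. The SoxC genes Sox12 (0.71) and Sox4 (0.60) were higher in TG, as was Sox11. Adcyap1, which encodes PACAP (0.73), and the endothelin-converting enzyme Ece1 (0.69) were higher in TG, whereas Ecel1 was lower. Gadd45g (-0.34) was lower in TG, with overlap. Basp1 and Marcks, which share the membrane-bound growth cone role of Gap43, differed by 0.045 and 0.017 and, like Gap43, did not pass.

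Wider lists of the injury programme showed no called gene either. In TG, 16 of 24 injury transcription factors, 19 of 25 growth cone and cytoskeleton genes, 14 of 19 signals of injured sensory neurons and 5 of 14 satellite glia and Schwann cell injury genes had a higher mean in CTG, where 48% of all genes tested did. Their median differences were 0.052, 0.062, 0.085 and -0.032, and 0 of each passed. In Sp5C the counts were 18 of 24, 8 of 23, 6 of 15 and 5 of 13, where 50.3% of all genes had a higher mean in CSp5C, with medians of 0.048, -0.031, -0.024 and -0.088, and again 0 passed. In TG, 10 of the 12 sensory neuron markers also had a higher mean in CTG, with a median difference of 0.068. Their part in the counts of these lists was not tested. The lists share Stmn4, Hspb1 and Ngfr, and Tubb3 of the growth cone list is itself a sensory neuron marker. Of 121 genes above 0 in the lists of receptors, relatives and injury genes together, 2 were higher in every C library of both tissues, Cebpd and Cdkn1a, and 0 were lower in every one, beside 0.21% and 0.372% of all genes above 0.

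**Figure D5:**
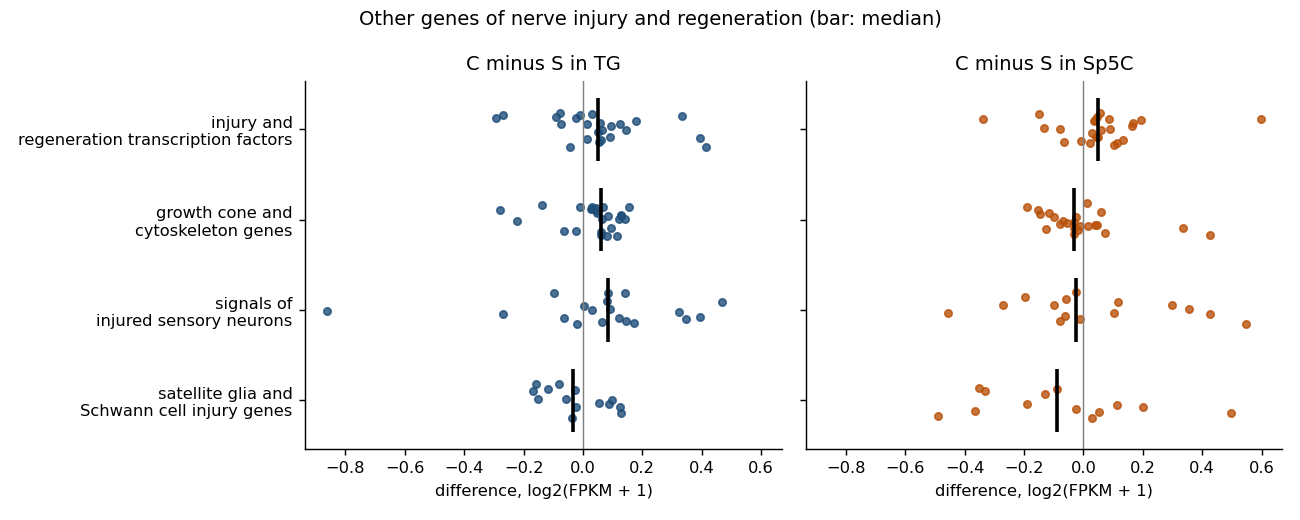
C minus S differences of the tested genes of 4 lists in TG (left) and Sp5C (right), in log2(FPKM + 1). Each point is 1 gene and each black bar the median of the list, which lies between -0.032 and 0.085 in TG and between -0.088 and 0.048 in Sp5C.

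Cebpd, an inflammatory and stress transcription factor, was 2.88, 2.52 and 2.94 FPKM in STG and 4.01, 4.02 and 3.30 in CTG. The Sp5C libraries gave 1.14, 1.03 and 1.08 in SSp5C and 1.42, 1.59 and 1.17 in CSp5C. The differences were 0.34 (limma adjusted p = 0.960) and 0.19 (adjusted p = 0.931). Cdkn1a, the cell cycle inhibitor p21 and a gene that injured neurons raise, was 33.5, 37.7 and 40.1 FPKM in STG and 43.8, 52.7 and 50.9 in CTG. For Sp5C the values were 4.30, 4.70 and 4.05 in SSp5C and 5.37, 8.04 and 7.29 in CSp5C. The differences were 0.40 (limma adjusted p = 0.960) and 0.55 (adjusted p = 0.904). For both genes the groups did not overlap in either tissue, as with Sprr1a, and neither passed the threshold.

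Other genes with the smallest p of each list in TG were the transcription factors Atf4 (0.14, no overlap) and Atf2 (0.39), the laminin receptor subunits Itga6 (-0.28, no overlap) and Itga7 (-0.14, no overlap), the annexin Anxa2 (0.13, no overlap), the urokinase receptor Plaur (0.32, no overlap), the serpin Serpina3n (0.17), and in glia Lgals1 (0.096, no overlap), Erbb3 (-0.081) and Ngfr (0.13). Their limma adjusted p was 0.960 in each case. Picking by smallest p favours groups that do not overlap. In TG, groups did not overlap for 4 of 24 injury transcription factors, 2 of 19 signals and 1 of 14 glial genes. Of 25 growth cone and cytoskeleton genes, 3 were higher and 2 lower without overlap. The share over all genes tested was 10.8%.

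In Sp5C, Sez6l, Creb1 and the glial genes below were named after their values were seen. Sez6l, a neuronal membrane protein, was 25.6, 26.9 and 26.1 FPKM in SSp5C and 18.5, 18.6 and 19.4 in CSp5C (difference -0.46, limma adjusted p = 0.0895). Creb1, the cyclic AMP response factor, was 7.04, 6.05 and 4.92 in SSp5C and 9.28, 9.04 and 10.2 in CSp5C (0.60, adjusted p = 0.568). Neither passed. Among glial genes of the lists Olig1 (-0.33) and Cnp (-0.37), both genes of oligodendrocytes, were lower in each CSp5C library, beside the lower oligodendrocyte marker sum given above, which holds Cnp. Of all genes tested in Sp5C, 6.2% were lower in each CSp5C library than in each SSp5C library.

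Profiles over the 12 libraries were compared by the root mean square difference of log2(FPKM + 1) after centring each gene on its own mean, over 13081 genes. The profile nearest to Atf3 was that of Klhl21 (0.138), then Gpr157 (0.145). For Sox11 the nearest were Akt2 (0.0479) and Colgalt1 (0.0553), for Gap43 Stat5b (0.0754) and Tle3 (0.0757), and for Gadd45a Sem1 (0.0719) and Psmb4 (0.108). For Gal they were Pik3ip1 (0.238) and Dclk3 (0.246), for Npy Trank1 (0.121) and Tunar (0.132), for Ecel1 Phyhip (0.185) and Grin2b (0.202), and for Flrt3 Prickle2 (0.0630) and Rapgef2 (0.0652). The rule named non-members only. The points of a profile share tissue and library, so likeness over 12 libraries includes the difference between TG and Sp5C.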

How the data were processed

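Total RNA was taken up in Trizol, depleted of rRNA (Ribo-zero) and made into strand-marking libraries (NEBNext Ultra Directional), per the labels' protocols. HISAT2, StringTie 1.3.1 and Cuffdiff 2.1.1 are named in the submitters' processing notes. For HISAT2 no version, and for the upstream genome build and annotation no name, was given in the sources used. FPKM per transcript and library is what the authors deposited. The lncRNA files were not used.

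FPKM were summed per gene. Genes with a mean of at least 1 FPKM over the libraries compared were tested as log2(FPKM + 1) with limma 3.58.1 in R 4.3.3 (trend and robust moderation, two-sided, files read with data.table, version 1.17.8), with Benjamini-Hochberg adjustment over all genes and a threshold of 0.05. C minus S used the 6 libraries of a tissue, and other contrasts used all 12. The script was tested on simulated data. The files hold no counts. FPKM times GENCODE length of low single-transcript genes fell on a ladder whose step, the value of 1 fragment, was 0.0313 (CTG replicate 3, the deepest library) to 0.0442 (CSp5C replicate 3, the shallowest) FPKM times kilobase, with 57.3% to 64.6% of values within 0.1 of a whole multiple. Fragment numbers are estimates from that step, and no counting interval is given. Libraries of one tissue correlated at 0.967 to 0.989 and summed to 285789 to 319060 FPKM over protein-coding genes.

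All 10 members were named, receptors and relatives that passed the filter, up to 3 genes of each other list by smallest p in TG, and the 2 nearest profiles of each member. Members and lists were chosen with earlier results of these data known. Alternatives were another pseudocount, other filters, median-ratio scaling, plain moderation, a replicate block over all groups or within each letter, a fit of all 12 libraries, and leaving out libraries. A gene of the glial lists is not reported here.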

Additional observations from a re-analysis of the deposited data

Results flagged for a closer look

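In 20 sets, each 1 gene in the 6 libraries of a tissue, 4 had a library far from the other 5 by Dixon's test, which chance flags in about 1 of 20 groups. The sets join C and S libraries, so a difference between the letters adds to their range. Sprr1a stood at 1.98 FPKM in CTG replicate 3, with the next TG library at 0.713. Ecel1 stood at 0.712 FPKM in STG replicate 1, with the next TG library at 0.0599, and at 15.1 FPKM in CSp5C replicate 3, with the next Sp5C library at 10.004. Flrt3 stood at 4.03 FPKM in STG replicate 1, with the next TG library at 3.35. STG replicate 1 is also the library with summed pituitary markers of 2950 FPKM, and CSp5C replicate 3 the one with summed choroid plexus and ependyma markers of 61.2 FPKM. Their part in the Ecel1 and Flrt3 values was not tested.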

How the results depend on the processing

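No setting run brought a member past the threshold for C minus S in either tissue. The calls of Atf3, Sox11, Gal, Npy, Ecel1 and Flrt3 between tissues held under every setting in which they were tested, and Gadd45a lost its call in 6, among them the removal of both STG replicate 1 and CTG replicate 1 (adjusted p = 0.0535). With a filter of 5 FPKM fewer were tested, and 3 of 4 members and 2 of 3 member transcripts passed between tissues. Counts of all genes called were unstable: 1 in TG and 4 in Sp5C became 0 with that filter and 0 in the fit of all 12 libraries, 5 in TG without both first replicates, 0 to 7 in TG and 0 to 8 in Sp5C on leaving out 1 library. The difference of effects called 2 genes without both first replicates and 0 to 2 on leaving out 1 library.

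With the replicate number as a block, 0 genes passed in TG and 0 in Sp5C, and no member's call changed. Between letters, deviations of same-numbered STG and CTG libraries correlated at 0.091, 0.186 and -0.147 and those of SSp5C and CSp5C at -0.126, 0.061 and 0.103. Whether they shared more than a number was not tested. Between tissues same-numbered libraries correlated at 0.333, 0.226 and 0.383 for CTG with CSp5C, where different numbers gave -0.30 to -0.0065. For STG with SSp5C they correlated at -0.077, -0.19 and -0.015, while STG replicate 2 with SSp5C replicate 1 gave 0.21. Deviations sum to 0 in each group, so values of different numbers are not an independent comparison. The labels name no shared animal. With a replicate block within each letter, added after these correlations were seen, 7 of 8 members and 9240 genes passed between tissues. For the difference of effects or the averaged contrast, 0 members passed.

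Small differences changed sign. Without both first replicates, Gap43 in TG was -0.021 and Flrt3 0.026. On leaving out 1 library, Flrt3 ran from -0.12 to 0.014 in TG, Sox11 ran from -0.0065 to 0.071 in Sp5C, Gap43 ran from -0.058 to 0.080 in Sp5C, Npy ran from -0.20 to 0.052 in Sp5C, Vip ran from -0.18 to 0.10 in Sp5C, Ecel1 ran from -0.062 to 0.34 in Sp5C, Flrt3 ran from -0.094 to 0.0069 in Sp5C and Gadd45a ran from -0.11 to 0.13 in Sp5C. The cause was not tested. Estimated fragments were at most 3.3 for Npy, 13.0 for Vip and 51.0 for Sprr1a in TG, and 36.3 for Atf3 and 13.2 for Sprr1a in Sp5C, which limits any statement on them. Fragments were not estimated for Ecel1, Flrt3 and Gadd45a, nor for Atf3 in TG.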
